A study of Mus musculus with 6 samples.

Results

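The synaptic organizer genes encode secreted and membrane proteins that join the presynaptic to the postsynaptic side of a synapse or are close relatives of such proteins, and 49 of them were named by symbol. A gene entered if the array table held a row whose single gene symbol was on that list, and where there were several rows, the brightest on average was used. This gave 45 genes of the 14860 genes that had such a row. Ntng2 was present only in a row shared with another symbol, and Ntng2, Cbln4, Il1rapl1 and Slitrk2 were not analysed here. The samples were lumbar spinal cord motor neurons of HB9::GFP mouse embryos (line mHB9-Gfp1b) on embryonic day 12, and every sample of both groups carried that transgene, in which sequences of the motor neuron gene Hb9 drive green fluorescent protein. The columns were dissected, dissociated with trypsin and sorted for fluorescence. Medial and lateral motor neurons gave 3 arrays each, called biological replicates in the labels, which do not say whether embryos were pooled or came from separate litters. The p-values below therefore measure the spread between these samples, which may be technical.

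Neurexins are presynaptic receptors that bind many partners across the synaptic cleft, among them neuroligins, Lrrtm proteins, secreted cerebellins and secreted neurexophilins. Teneurins on one cell bind latrophilins or other teneurins on the next, Lgi proteins are secreted and bind the membrane proteins Adam22 and Adam23, and Slitrk proteins bind receptor phosphatases of the LAR family. Medial column motor neurons innervate muscles along the spine and lateral column motor neurons innervate the limb. At this stage their axons are growing, and several of these families also act in axon guidance and cell adhesion.

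The 6 arrays gave 23332 values each, from 2.49 to 14.15 on a log2 scale, with array medians between 6.73 and 6.84. The column markers matched the labels: the medial genes Lhx3, Lhx4 and Mecom were higher in the medial samples in 3 of 3 cases, and the lateral genes Foxp1, Aldh1a2, Lhx1 and Etv4 were lower in 4 of 4. All 8 motor neuron markers were measured, with summed linear values of 16571 to 17758 in the medial and 18890 to 19943 in the lateral samples. In the medial samples 2 of them were called higher, Isl2 (2.98-fold) and Mnx1 (2.67-fold). The 3 called lower were Isl1 (1.56-fold), Prph (3.15-fold) and Ret (2.36-fold). Mnx1 is another name of Hb9, whose sequences drive the fluorescence used for sorting, and its bearing on the sorted cells was not tested. Of 3 floor plate markers, Shh and Spon1 were lower in the medial samples, the summed values were 911 to 997 against 2021 to 2147, and the defining gene Foxa2 stood at 6.97 and 6.94 (log2 means). Summed values of the other lists overlapped between the groups, except for 5 vessel genes (159 to 163 against 139 to 151) and 1 red blood cell gene (38.2 to 38.9 against 39.5 to 40.6), all of them at or below a log2 mean of 6.13 in both groups. That level is the 95th percentile of 801 rows for olfactory and vomeronasal receptors, genes of other tissues, and is used here as a mark of low signal. A summed value mostly follows the brightest gene of its list, so an overlap need not hold for the other genes. The brightest were Vim for the progenitors (log2 means of 12.90 medial and 12.94 lateral) and Fabp7 for the Schwann and crest list (8.72 and 8.19). Among the remaining lists, Slc17a6 of 14 interneuron genes, Sox2 of 8 progenitor genes and Cldn5 of the vessel genes were higher in the medial samples, and no marker of 4 sensory, 4 Schwann and crest, 8 mesenchyme, 4 myeloid or 11 skeletal muscle genes passed in limma (unadjusted p under 0.05 for 1, 0, 2, 0 and 1 of them). The part of any other cell type in the results below was not tested, and in bulk samples fewer cells of a type cannot be told apart from less RNA per cell.

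Medial and lateral neurons differed in a few members of these families, in both directions. The secreted neurexin ligands Nxph4 and Cbln1 were higher in medial neurons, 6.41-fold and 4.21-fold. The secreted protein gene Lgi1 was 9.86-fold, the teneurin genes Tenm1 and Tenm4 3.25-fold and 1.71-fold, the neurexin ligand gene Lrrtm1 2.37-fold and the Lgi receptor gene Adam23 1.58-fold higher in lateral neurons. These 7 of 45 genes, 2 higher and 5 lower in medial neurons, passed a Benjamini-Hochberg adjusted p of 0.05 in limma over all rows, beside 3.8% of all genes (1.53% higher and 2.26% lower) and 3.07% of all rows. Of the genes above a log2 mean of 6.13 in at least 1 group, 5.42% passed, a share that takes in genes dim in 1 group through the other group. The list was drawn up with earlier results of these data known, so nothing is read from the excess over that share. The other 38 did not pass. Of the 45, 21 had an unadjusted p under 0.05 in limma. No share of all genes was computed for that unadjusted count or for those by list and family, so nothing is read from them.

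The median log2 difference, medial minus lateral, was 0.03 over the 45 genes and 0.01 over all genes. The median size of the difference, regardless of sign, was 0.24 and 0.092 respectively. Medial and lateral ranges were separate in 27 of the 45 genes, 13 with medial above and 14 with medial below, and in 22.2% of all genes. The 2 sets differ in signal. Of all 14860 genes, 9894 were above the low signal mark in at least 1 group, and only 3 of the 45 were not. Neither the share of separate ranges nor the median size was computed for the 9894 genes. The SD within a group was at most 0.47 and had a median of 0.13. For 26 of the 45 genes the 95% interval of the difference lay wholly inside a change of 1.5-fold in either direction.

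**Figure D1:**
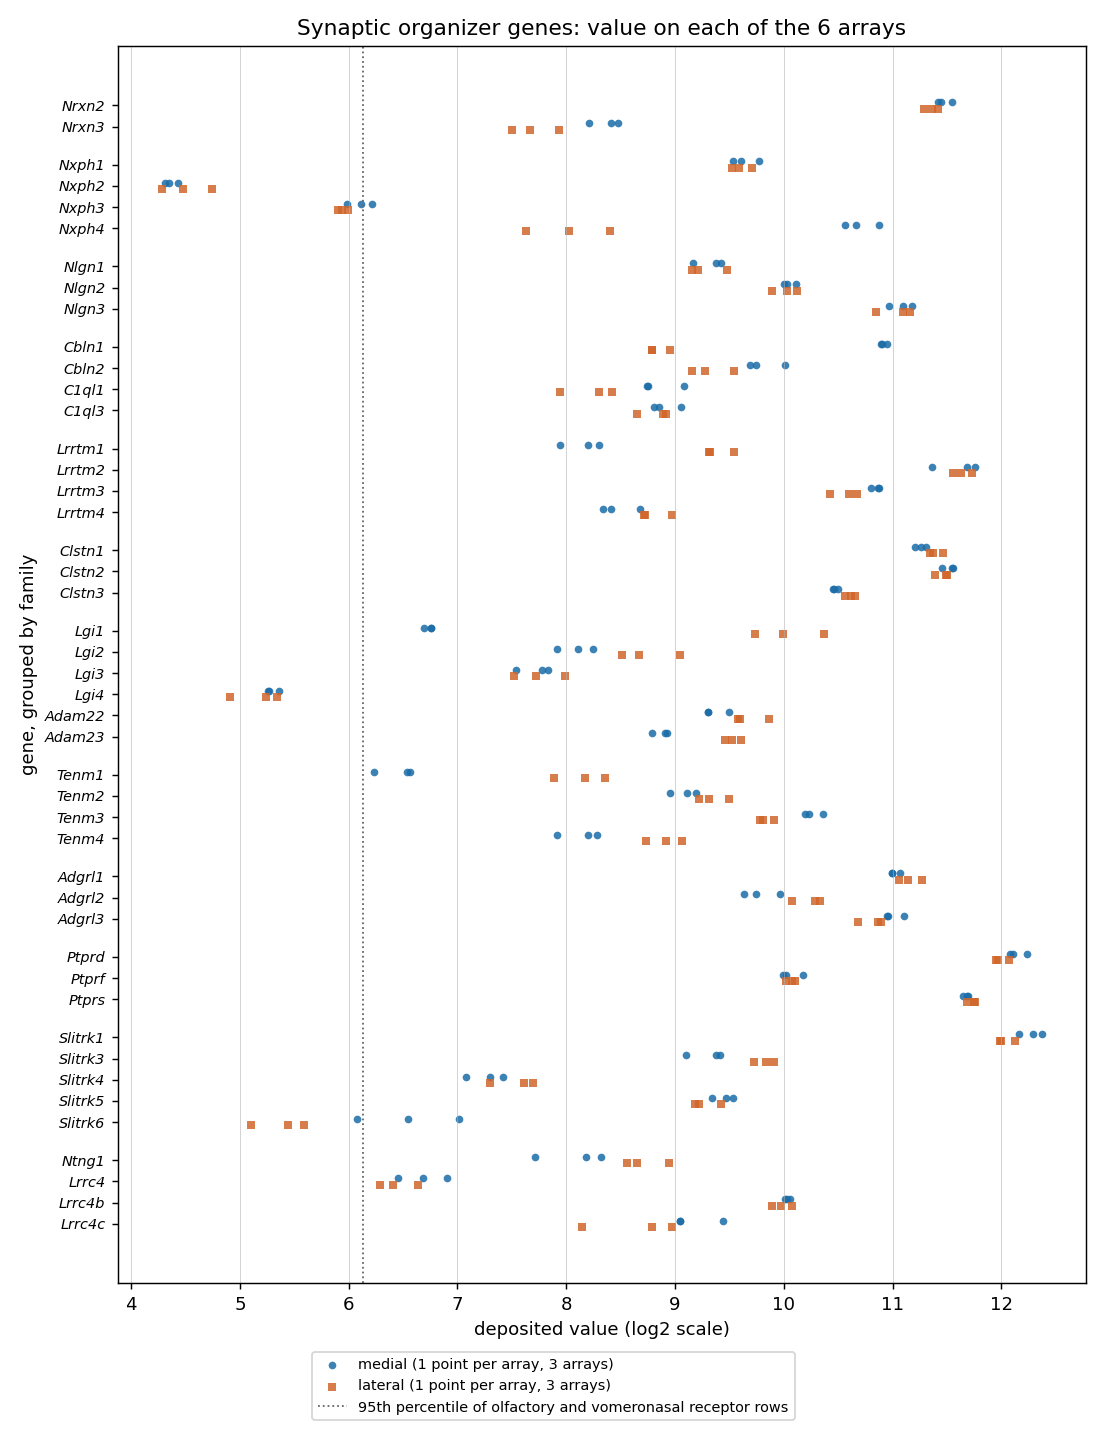
Deposited values (log2 scale, horizontal axis) of the 45 genes on each array, grouped by family, with circles for 3 medial and squares for 3 lateral arrays and a dotted line at the 95th percentile of receptor rows (6.13). Nxph4, Cbln1, Lgi1 and Tenm1 show the widest gaps between circles and squares, and Nxph2, Nxph3 and Lgi4 lie at or left of the line in both group means.

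The 2 measured neurexins did not pass in limma, and 1 had an unadjusted p under 0.05. Nrxn2 had means of 11.47 ± 0.07 in the medial and 11.36 ± 0.06 in the lateral samples (log2, SD, n = 3), with a difference of 0.12 and a 95% interval from −0.07 to 0.30. Nrxn3 read 8.48, 8.20 and 8.41 on medial arrays 1, 2 and 3 and 7.67, 7.94 and 7.499 on the lateral arrays. All its medial values lay above all its lateral values, and the difference of 0.66 ± 0.14 (SE) had an adjusted p of 0.0656. It passed in 4 of the 9 other settings that kept every sample (adjusted p from 0.0163 to 0.157) and in none of the 6 limma fits with an array left out.

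Among the neurexophilins, secreted proteins that bind neurexins, only Nxph4 passed of the 4 measured. Nxph4 read 10.88, 10.56 and 10.66 in the medial samples and 8.02, 8.40 and 7.63 in the lateral samples. Every medial value was at least 2 log2 units above every lateral one, and the lateral arrays spread more widely (SD 0.38) than the medial arrays (SD 0.16). The difference was 2.68 ± 0.20 (SE, adjusted p = 0.00163) and passed whichever array was left out (adjusted p up to 0.0137). Nxph1 had similar means in both groups, 9.64 and 9.60, and a difference of 0.03 with a 95% interval from −0.20 to 0.26. Nxph2 (4.37 and 4.50) and Nxph3 (6.11 and 5.94) were at or below the low signal mark in both groups, so a difference in them may not be detectable on these arrays.

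Cerebellins and C1q-like proteins are secreted proteins of the C1q family. Cerebellins bridge presynaptic neurexins and postsynaptic delta glutamate receptors. Cbln1 read 10.95, 10.91 and 10.89 in the medial samples and 8.95, 8.78 and 8.79 in the lateral samples. The groups were far apart and tight within themselves, with a difference of 2.07 ± 0.08 (SE, adjusted p = 1.65e-04), the smallest adjusted p of the 45 genes. Leaving out any array kept the call (adjusted p up to 0.00291). Its paralog Cbln2 was at 9.81 ± 0.17 and 9.32 ± 0.20 (SD, n = 3), without overlap, and its difference of 0.49 ± 0.14 did not pass (adjusted p = 0.164).

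C1ql1, a ligand of the adhesion receptor Adgrb3 in the cerebellum, read 8.74, 8.76 and 9.08 in the medial samples and 8.30, 7.95 and 8.42 in the lateral samples. The medial values were again all above the lateral ones, and the difference of 0.64 ± 0.16 had an adjusted p of 0.118. It passed in 2 of the 9 other settings. C1ql3 differed by 0.09 with an interval from −0.18 to 0.36, and its groups overlapped.

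The 3 neuroligins, postsynaptic receptors for neurexins, gave the smallest range of differences. Nlgn1, Nlgn2 and Nlgn3 differed by 0.05, 0.03 and 0.05 on the log2 scale, all with overlapping groups and 0 with an unadjusted p under 0.05. Their 95% intervals ran from −0.24 to 0.33, from −0.18 to 0.24 and from −0.22 to 0.31, so each lay inside a 1.5-fold change. Calsyntenins, postsynaptic cadherin-like proteins, did not pass in limma either. Clstn1, Clstn2 and Clstn3 differed by −0.14, 0.06 and −0.14, all 3 intervals also lay inside 1.5-fold, and 0 had an unadjusted p under 0.05. In Clstn1 and Clstn3 the lateral values were all above the medial ones, by little (adjusted p = 0.518 and 0.458).

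The Lrrtm proteins are postsynaptic leucine-rich-repeat proteins and, as given above, partners of neurexins. Lrrtm1 read 8.30, 7.95 and 8.20 in the medial samples and 9.55, 9.32 and 9.31 in the lateral samples. All lateral values lay above all medial values, and the difference was −1.24 ± 0.12 (SE, adjusted p = 0.00448, up to 0.028 with an array left out). Lrrtm2 differed by −0.03, with an interval from −0.33 to 0.26. Lrrtm3 pointed the other way, with means of 10.85 and 10.57 and a difference of 0.28 ± 0.09, and Lrrtm4 had −0.32 ± 0.12. Neither passed (adjusted p = 0.221 and 0.321).

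In the mouse, Lrrtm1, Lrrtm2 and Lrrtm3 each lie inside an alpha-catenin gene, Ctnna2, Ctnna1 and Ctnna3, which the RefSeq annotation of GRCm38.p6 also gives. These host genes were looked up after the Lrrtm values had been seen. Ctnna2, the host of Lrrtm1, read 11.23, 11.08 and 11.07 in the medial samples and 10.84, 10.65 and 10.81 in the lateral samples, a difference of 0.36 ± 0.09 (adjusted p = 0.121). Its sign was opposite to that of Lrrtm1. Ctnna1 and Ctnna3 differed by 0.15 ± 0.09 and −0.12 ± 0.07 and did not pass, and Ctnna3 was below the low signal mark with means of 4.73 and 4.85.

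The secreted protein gene Lgi1 had the widest difference of the 45 genes. In humans, mutations in LGI1 cause an inherited epilepsy. Lgi1 read 6.75, 6.69 and 6.75 in the medial samples and 10.37, 9.74 and 9.995 in the lateral samples. The medial arrays were nearly identical and stood little above the low signal mark, so the fold may understate the difference. The difference was −3.30 ± 0.16 (SE, adjusted p = 4.47e-04) and passed whichever array was left out (adjusted p up to 0.00581).

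Of the other Lgi genes, Lgi2 read 8.11, 7.91 and 8.25 in the medial samples and 9.04, 8.52 and 8.66 in the lateral samples. Its groups did not overlap, and the difference of −0.65 ± 0.16 had an adjusted p of 0.114, passing in 3 of the 9 other settings. Lgi3 differed by −0.03 (interval −0.37 to 0.32). Lgi4, which Schwann cells use in myelination, was below the low signal mark with means of 5.29 and 5.17.

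Adam23, a membrane receptor of Lgi1 with no protease activity, read 8.93, 8.79 and 8.91 in the medial samples and 9.61, 9.52 and 9.46 in the lateral samples. All lateral values were higher, with a difference of −0.66 ± 0.08 (SE, adjusted p = 0.0108). The call ended without medial replicate 3, where the adjusted p was 0.0538. A second row for Adam23 gave a difference of −0.61 ± 0.11 (adjusted p = 0.0397), a call that held in 1 of the 6 fits with an array left out (up to 0.156). Adam22, the postsynaptic partner of Lgi1, had means of 9.37 ± 0.11 and 9.68 ± 0.16 and did not pass (difference −0.31 ± 0.11, adjusted p = 0.273). Of the 6 measured Lgi and Adam genes, 2 passed, beside 3.8% of all genes. The groups were separate in 4 of the 6, with lateral above medial each time, and overlapped in Lgi3 and Lgi4. Over all genes 22.2% were separate, counted in either direction.

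Of the 4 teneurins, large membrane proteins with a neuronal adhesion role, 2 passed as lower in medial neurons, beside 2.26% of all genes. The groups were separate in all 4, 3 with lateral and 1 with medial values above, beside 22.2% of all genes in either direction. Tenm1 read 6.56, 6.23 and 6.53 in the medial samples and 8.36, 8.17 and 7.89 in the lateral samples. The medial values lay just above the low signal mark, and the difference was −1.70 ± 0.15 (SE, adjusted p = 0.00291, up to 0.0199 with an array left out). Tenm4 read 8.20, 7.92 and 8.28 in the medial samples and 9.06, 8.92 and 8.74 in the lateral samples. Its difference of −0.77 ± 0.13 (SE, adjusted p = 0.0338) passed with all arrays and without lateral replicate 3, and ended without any other single array (adjusted p from 0.0485 to 0.12 over the 6 fits). It also passed in 8 of the 9 other settings that kept every sample (up to 0.0914).

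Tenm2 had means of 9.08 ± 0.12 and 9.34 ± 0.14, a difference of −0.26 ± 0.11 that did not pass (adjusted p = 0.372). Tenm3, which marks topographic connections in the mouse visual system and hippocampus, was the teneurin with the opposite sign. Its medial values were 10.23, 10.19 and 10.36 and its lateral values 9.91, 9.81 and 9.78. The difference of 0.42 ± 0.08 had an adjusted p of 0.0552, just over the threshold, and passed in 7 of the 9 other settings (from 0.0165 to 0.129) but in none of the 6 limma fits with an array left out.

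The latrophilins, adhesion receptors that teneurins bind, did not pass in limma, and 1 of 3 had an unadjusted p under 0.05. Adgrl2 was the most different of the 3, with means of 9.78 ± 0.17 and 10.23 ± 0.13 that did not overlap and a difference of −0.45 ± 0.12 (adjusted p = 0.146). Adgrl1 differed by −0.14 ± 0.08 and Adgrl3 by 0.19 ± 0.09, and both intervals lay inside a 1.5-fold change.

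No promoter window was available for Nxph4 and Cbln1, the 2 genes called higher in medial neurons. Promoter windows are shown for Lgi1, Tenm1 and Lrrtm1, the genes with the widest differences toward lateral neurons, since they moved in the same direction. Each runs from 250 bases before to 50 bases after the RefSeq start, on build GRCm38.p6, at chr19:38264437-38264736 on the plus strand for Lgi1, chrX:43274735-43275034 on the minus strand for Tenm1 and chr6:77242227-77242526 on the plus strand for Lrrtm1. Capitals mark ATTA and its reverse complement TAAT, the core bound by many homeodomain proteins, a class to which Lhx and Isl proteins belong.
Lgi1: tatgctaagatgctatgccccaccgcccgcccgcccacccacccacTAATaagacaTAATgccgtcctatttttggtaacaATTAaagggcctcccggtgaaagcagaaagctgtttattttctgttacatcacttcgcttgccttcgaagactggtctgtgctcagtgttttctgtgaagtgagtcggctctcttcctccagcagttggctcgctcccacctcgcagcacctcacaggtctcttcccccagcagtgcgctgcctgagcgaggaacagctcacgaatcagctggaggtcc
Tenm1: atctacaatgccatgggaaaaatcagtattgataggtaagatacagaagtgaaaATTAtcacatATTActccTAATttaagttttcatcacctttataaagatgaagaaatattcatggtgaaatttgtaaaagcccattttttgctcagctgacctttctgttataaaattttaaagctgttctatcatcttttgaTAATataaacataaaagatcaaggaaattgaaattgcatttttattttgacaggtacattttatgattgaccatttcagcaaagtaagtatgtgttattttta
Lrrtm1: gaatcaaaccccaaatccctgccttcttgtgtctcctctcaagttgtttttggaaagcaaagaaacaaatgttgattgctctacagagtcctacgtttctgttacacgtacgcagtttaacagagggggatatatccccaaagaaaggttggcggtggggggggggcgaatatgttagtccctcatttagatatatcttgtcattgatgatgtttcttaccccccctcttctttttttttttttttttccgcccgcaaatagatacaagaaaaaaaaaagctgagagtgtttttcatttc
Lgi1 held 3 matches, Tenm1 4 and Lrrtm1 0, where overlapping matches would count separately. At least 1 match was present in 58.0% of 32851 RefSeq windows of this length and 3 or more in 20.04%, so matches are common. The longer palindrome TAATTA, which contains both cores, was in 0 of the 3 and in 5.29% of all windows. The GC content was 54.0% for Lgi1, 27.0% for Tenm1 and 40.7% for Lrrtm1, against a median of 52.7% over all windows, and 0.335% of windows were as low as Tenm1. The start used in these neurons may lie elsewhere, and a match is a description of the letters, not a binding site.

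**Figure D2:**
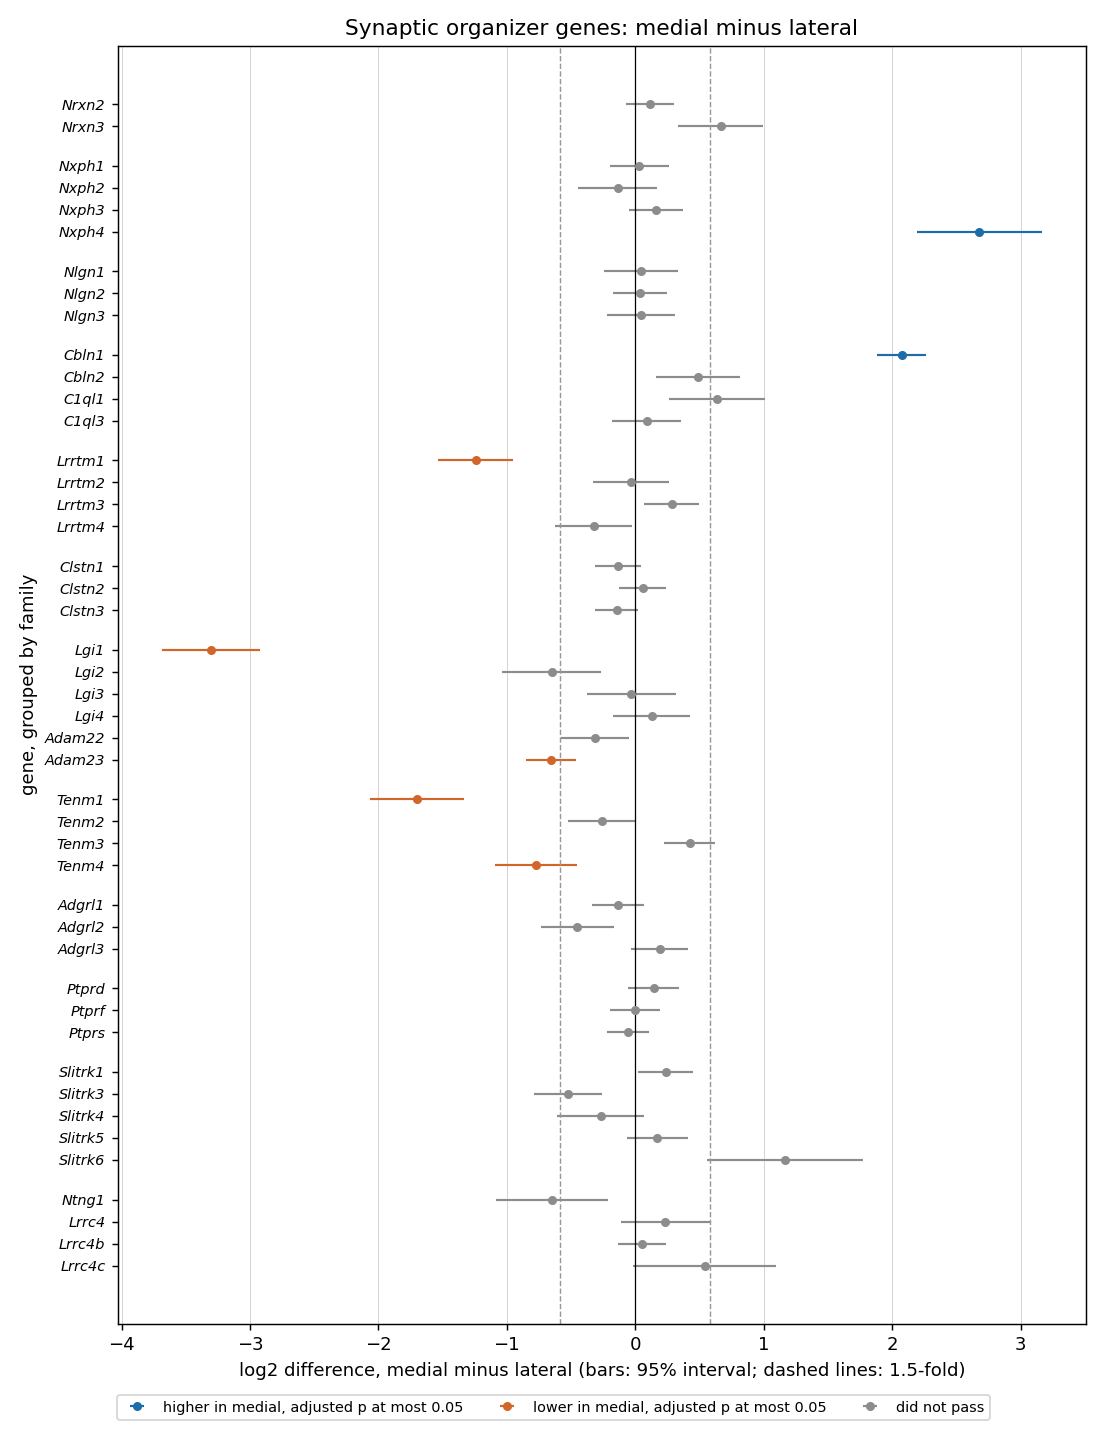
Log2 difference of each of the 45 genes, medial minus lateral, with its 95% interval from limma, dashed lines at 1.5-fold and colour for the call at an adjusted p of 0.05. The 2 genes called higher are Nxph4 and Cbln1, the 5 called lower are Lrrtm1, Lgi1, Adam23, Tenm1 and Tenm4, and the neuroligins, calsyntenins and receptor phosphatases lie between the dashed lines.

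The LAR family receptor phosphatases Ptprd, Ptprf and Ptprs, presynaptic receptors for Slitrk proteins and other ligands, differed little. Their log2 differences were 0.14, −0.00 and −0.06, and all 3 intervals (−0.05 to 0.34, −0.20 to 0.20 and −0.22 to 0.11) lay inside a 1.5-fold change, with 0 unadjusted p-values under 0.05. None of the 5 measured Slitrk genes, which encode postsynaptic leucine-rich-repeat proteins, passed in limma, and 3 had an unadjusted p under 0.05.

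Slitrk6, which in the mouse is needed for the innervation of the inner ear, read 7.02, 6.08 and 6.54 in the medial samples and 5.10, 5.59 and 5.44 in the lateral samples. The groups did not overlap, the medial spread was the largest of the 45 genes (SD 0.47), and the lateral mean of 5.38 was below the low signal mark. The difference of 1.17 ± 0.25, or 2.24-fold, had an adjusted p of 0.0768. It passed in 3 of the 9 other settings (from 0.0181 to 0.180). Of the 6 limma fits with an array left out it passed in 1, without medial replicate 2 (adjusted p = 0.0474, up to 0.233 in the others). Slitrk3, a partner of Ptprd at inhibitory synapses, went the other way. It read 9.38, 9.10 and 9.42 in the medial samples and 9.91, 9.84 and 9.72 in the lateral samples, with a difference of −0.52 ± 0.11 and an adjusted p of 0.0722. It passed in 6 of the 9 other settings and in none of the 6 fits with an array left out. Slitrk1 had means of 12.27 and 12.04 and a difference of 0.24 ± 0.09 (adjusted p = 0.308). Slitrk4 and Slitrk5, at −0.27 ± 0.14 and 0.17 ± 0.10, overlapped between the groups.

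Netrin-G1, the product of Ntng1, is a membrane-anchored axonal protein that binds the dendritic protein encoded by Lrrc4c. Ntng1 read 8.32, 7.72 and 8.18 in the medial samples and 8.94, 8.65 and 8.56 in the lateral samples. Lrrc4c read 9.44, 9.05 and 9.04 in the medial samples and 8.97, 8.79 and 8.15 in the lateral samples. The groups of each did not overlap and pointed in opposite directions, but neither passed, with differences of −0.65 ± 0.18 (adjusted p = 0.171) and 0.54 ± 0.23 (adjusted p = 0.389). Ntng1 passed in 1 of the 9 other settings. Lrrc4, whose protein binds netrin-G2, and Lrrc4b, whose protein binds LAR family phosphatases, differed by 0.23 ± 0.14 and 0.05 ± 0.08 and overlapped.

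Within a group the arrays did not spread evenly around their mean. Medial replicate 2 was the lowest medial array for 30 of the 45 genes, and for 48.7% of all genes. Lateral replicate 1 was the highest lateral array for 34 of the 45 and lateral replicate 3 the lowest for 29, beside 50.4% and 32.7% of all genes. In Slitrk6, Ntng1 and Lrrtm1 the lowest medial value was that of replicate 2.

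**Figure D3:**
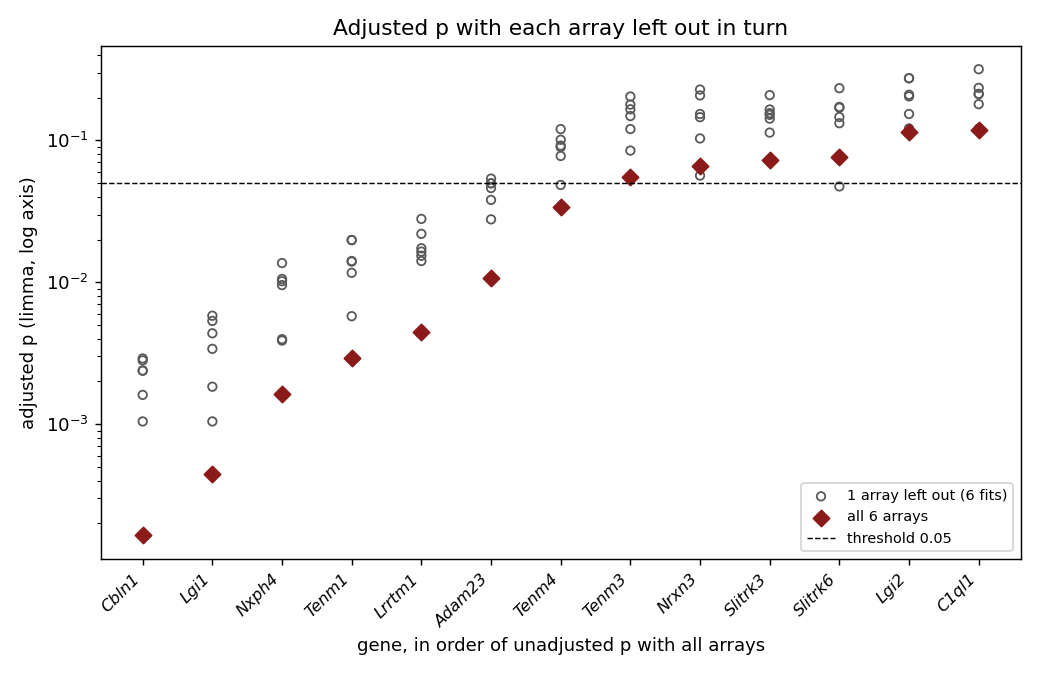
Adjusted p (limma, log axis) of the 13 genes with the smallest unadjusted p, with all 6 arrays (diamonds) and with each array left out (6 open circles per gene), and a dashed line at 0.05. Cbln1, Lgi1, Nxph4, Tenm1 and Lrrtm1 stay below the line in every fit shown, Adam23 crosses it in 1 fit and Tenm4 in 5.

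Partners of these families and the scaffolds inside the synapse were described from a separate list of 80 genes, 60 of them with a usable row. Of the 60, 5 passed as higher and 5 as lower in medial neurons, with a median log2 difference of −0.05, beside the 3.8% of all genes given above. Ligands and receptors of the member families held 5 of these 10 calls among 16 genes, 8 of which had an unadjusted p under 0.05 in limma. Flrt2 and Flrt1, whose proteins bind latrophilins and Unc5 receptors, were higher in medial neurons by 1.50 ± 0.10 (SE, adjusted p = 0.00119) and 0.97 ± 0.18 (adjusted p = 0.0456). Adgrb2, an adhesion receptor related to the receptor of C1q-like proteins, was higher by 0.63 ± 0.08. Il1rap, which encodes an interleukin receptor subunit whose protein also binds Ptprd, stood at 7.24 ± 0.26 in the medial and 9.12 ± 0.11 in the lateral samples (log2, SD, n = 3), a 3.66-fold difference (adjusted p = 0.00183). Grid1, a delta glutamate receptor that binds cerebellins, was 1.56-fold higher in lateral neurons (adjusted p = 0.0257), with the opposite sign to Cbln1.

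Of 13 other leucine-rich-repeat and immunoglobulin organizers, Cadm1 (a synaptic cell adhesion molecule) and Lrrn2 were higher in medial neurons by 0.76 ± 0.10 and 0.40 ± 0.07, and Amigo2 was lower by −0.71 ± 0.12. In limma 7 of the 13 had an unadjusted p under 0.05. Among 20 genes listed as intracellular scaffolds, 2 were lower in medial neurons. Dlg1, a membrane-associated guanylate kinase scaffold, was 1.89-fold and Syt4 3.71-fold higher in lateral neurons (adjusted p = 0.0102 and 0.00175). Syt4 encodes a vesicle-associated synaptotagmin and not a scaffold. Of these 20 genes, 8 had an unadjusted p under 0.05 in limma. The groups were separate in 10 of the 20, beside 22.2% of all genes. Log2 differences in this list ran from −1.89 to 0.32, and those of Dlg4, Cask and Gphn were −0.05, 0.03 and 0.02. None of 6 other neurexin-type and presynaptic genes and none of 5 neuromuscular organizers passed in limma (unadjusted p under 0.05 for 0 and 1), and Agrn, which motor neurons release to build the neuromuscular junction, differed by −0.06 ± 0.07.

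The calls of Flrt2, Il1rap, Dlg1 and Syt4 held whichever array was left out. Those of Amigo2 and Lrrn2 ended in each of the 6 fits with an array left out, with adjusted p up to 0.111 and 0.168, and held in 7 and 8 of the 9 settings that kept every sample (up to 0.0823 and 0.101). Grid1 kept its call only without lateral replicate 3 (adjusted p from 0.0357 to 0.0987) and held in 8 of those 9 settings (up to 0.105). Adgrb2 and Cadm1 lost theirs without any medial array (up to 0.0608 and 0.0593), and Flrt1 without any medial array or lateral replicate 2 (up to 0.168), with 8 of the 9 settings kept (up to 0.079).

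**Figure D4:**
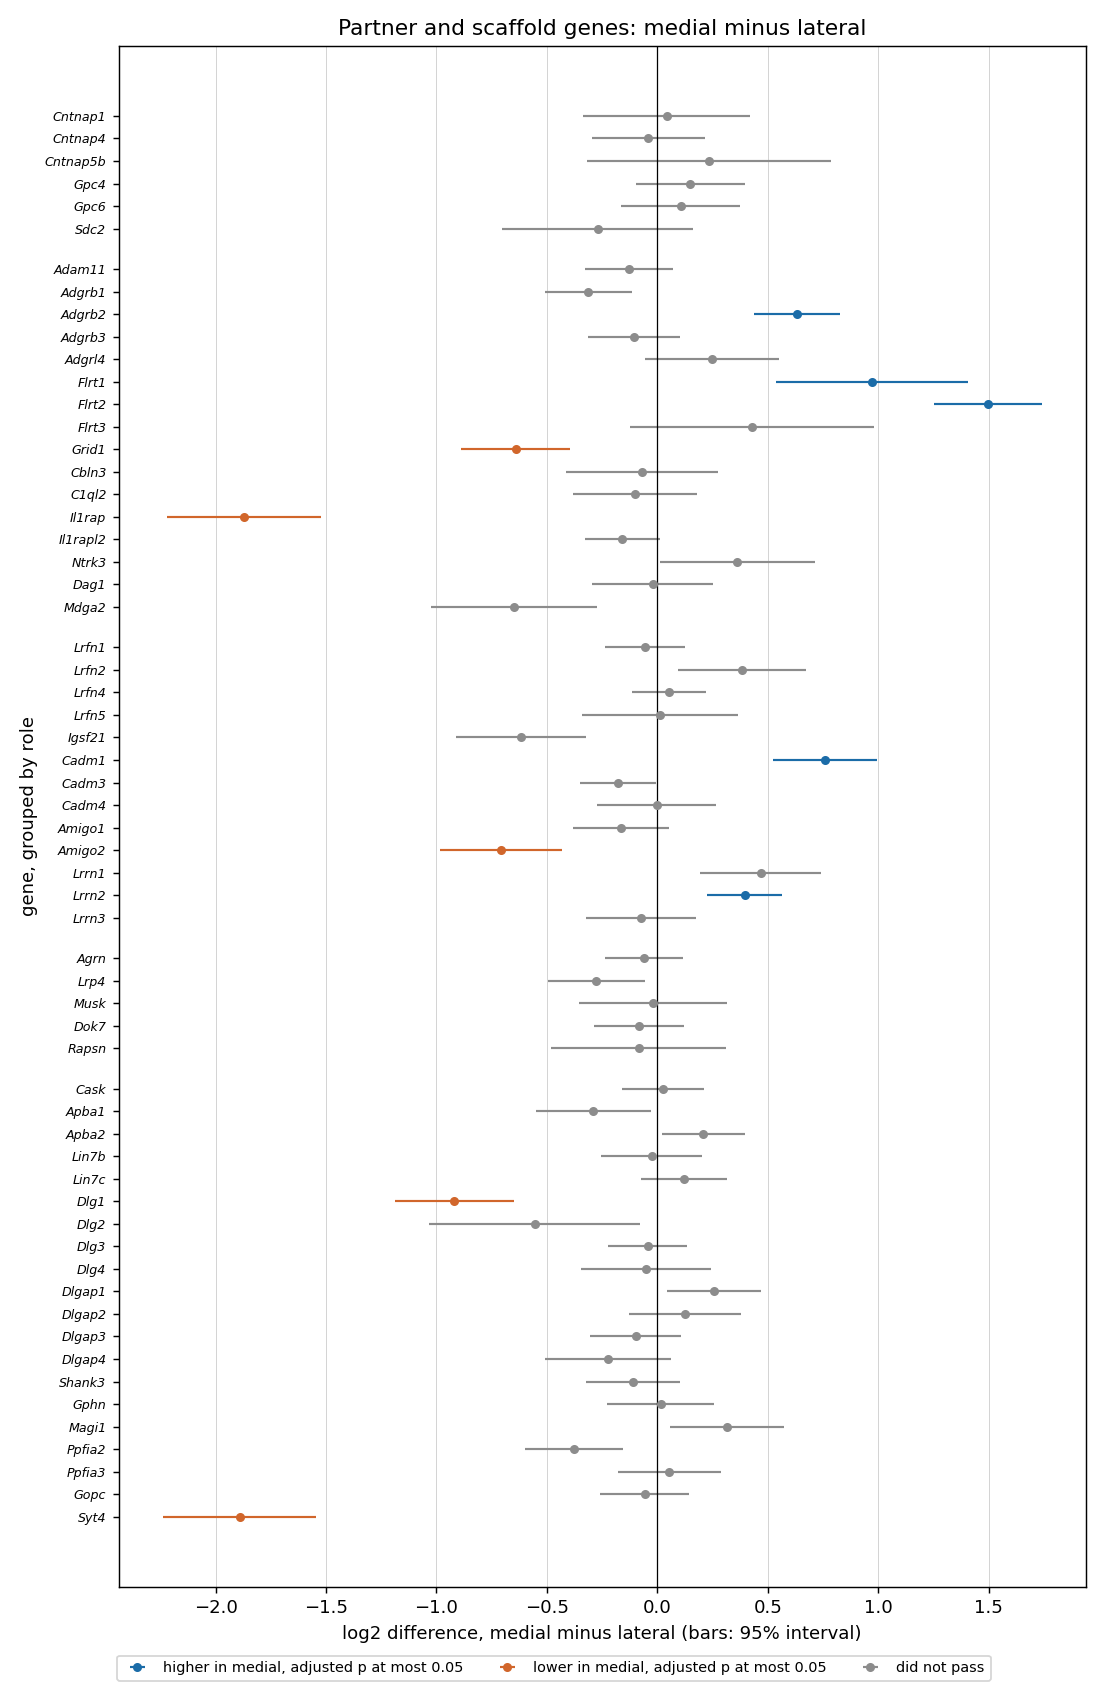
Log2 difference of the 60 partner and scaffold genes, medial minus lateral, with 95% intervals from limma, grouped by role and coloured by the call at an adjusted p of 0.05. Flrt2, Flrt1, Cadm1, Adgrb2 and Lrrn2 were called higher, and Syt4, Il1rap, Dlg1, Amigo2 and Grid1 lower.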

How the data were processed

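Total RNA of the sorted cells was biotinylated with a whole-transcript terminal labelling kit, per the labels' protocols, and each sample had 1 array. The authors deposited 1 value per row and array, taken as log2 from its range. How they were normalized, summarized or centred is not given in the sources used here. The submitters' processing notes name build mm9. The table holds no detection calls.

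A two-sided comparison of medial with lateral samples used lmFit and eBayes of limma 3.58.1 (R 4.3.3), without a block, adjusted by Benjamini-Hochberg over 23332 rows, with a threshold of 0.05. The program and open threshold that the series design names were not used. Of the rows, 14996 had 1 symbol, 1019 several and 7317 were not listed in the probe table. Rows were named through that table, with current symbols from RefSeq genes of GRCm38.p6, which also supplied promoter windows (37 of the 49 genes had one). Errors of differences are standard errors from the fit. The members and lists were chosen with earlier results of these data known. The naming rule took every member, with all 6 values for those that passed or differed by at least 0.5, and the partner genes that passed. Outside that rule, Tenm3 was given with all 6 values. Dlg4, Cask, Gphn, Agrn and the alpha-catenin host genes were also named outside it. The other settings that kept every sample were a block, quantile normalization, median centring, fewer rows (3 ways), an intensity trend, robust variance and array weights. Others asked for 1.5-fold as well, took the dimmer row of a gene or left out an array.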

Additional observations from a re-analysis of the deposited data

How the results depend on the processing

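Of the 7 called genes, Nxph4, Cbln1, Lrrtm1, Lgi1 and Tenm1 kept their direction and side of the threshold in all 9 other settings with every sample and in all 6 fits with an array left out, and no called gene reversed in any setting run. From 2 higher and 5 lower in medial neurons, the organizer genes went to 4 higher and 6 lower with arrays centred on their medians. They went to 6 higher and 7 lower with 1 row per gene or listed rows only, and to 5 higher and 6 lower with dim rows left out. The counts were 3 higher and 8 lower with quantile normalization, 3 and 6 with an intensity trend, and 3 and 5 with array weights. The settings with fewer rows adjust over fewer tests, and the cause of the other changes was not tested. Rows left out as dim were those at or below the low signal mark in both group means, so a row bright in 1 group stayed. With an array left out the numbers ran from 2 to 3 higher and from 3 to 5 lower, the 3 without medial replicate 3. The partner genes went from 5 higher and 5 lower to 5 and 8 with quantile normalization and to 6 and 8 with 1 row per gene or listed rows only. With an array left out they ran from 1 to 4 higher (1 without any medial array) and 3 to 4 lower (4 without lateral replicate 3). Same-numbered medial and lateral samples also share a number in their descriptions, whose meaning the labels do not state. Their deviations from the group means correlated with r of 0.35, 0.067 and 0.015, and not every sample correlated best with its own number. With 3 arrays a group these values constrain one another and cannot decide whether the samples were paired. The main fit did not treat them as pairs. With the replicate number as a block, 2 organizer genes were higher and 4 lower, Tenm4 being lost at an adjusted p of 0.0914, and 3 partner genes were higher and 3 lower, with Flrt1, Lrrn2, Grid1 and Amigo2 lost (adjusted p = 0.079, 0.101, 0.105 and 0.0823). Rows called over the whole table fell from 717 to 481 with the block. With 3 arrays a group and no detection calls, small differences and genes near the low signal mark cannot be settled.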
